A study of Mus musculus with 6 samples.

Results

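The replication-dependent histone genes were taken as the protein-coding genes of the GENCODE annotation of mm9 whose symbols run from Hist1h to Hist4h followed by a histone type. They were 67 of 22380 protein-coding genes and comprised 6 genes of linker histone H1, 19 of H2A, 18 of H2B, 11 of H3 and 13 of H4. Of these, 55 lay on chromosome 13, 9 on chromosome 3, 2 on chromosome 11 and 1 on chromosome 6. Their binding by YTHDC1 was read from LACE-seq, in which UV light (400 mJ) fixes a protein to the RNA it touches, the protein is precipitated with its RNA, and reverse transcription stops at the crosslinked nucleotide. ASC-48 hr, wild-type mouse satellite cells activated by 48 hr in culture, gave 4 libraries, with a first and a second technical replicate (T1, T2) from each biological replicate (B1, B2). C2C12, an established mouse myoblast line that was likewise wild type, gave replicates 1 and 2, which the labels call biological and the text of the study technical. The same YTHDC1 antibody was used in all 6 libraries, and more cells were used for C2C12 than for ASC-48 hr. Each library was deposited as a list of peaks on 20-nt bins with the number of reads per bin.

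Replication-dependent histone genes are expressed in S phase, when new DNA has to be packed into nucleosomes. H2A, H2B, H3 and H4 form the core of the nucleosome and H1 sits on the linker DNA. Their mRNAs are mostly unspliced and end in a conserved stem-loop in place of a poly(A) tail. The stem-loop is bound by SLBP, and the mRNA is cut after it by a machinery that contains U7 snRNA. YTHDC1 is the reader of N6-methyladenosine (m6A) in the nucleus, where it acts on splicing and export.

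YTHDC1 peaks covered most histone genes. A peak was counted when it lay wholly inside the gene and its deposited strand was opposite to that of the gene. Such peaks were taken to come from the gene's RNA and are called peaks on the strand of the RNA. In C2C12, 60 of the 67 genes held at least 1 peak called in both replicates (a shared peak), and the share of all protein-coding genes that did so was 21.8%. At least 3 shared peaks were held by 34 histone genes, against 8.35% of all protein-coding genes. Cytosolic ribosomal protein genes, another family of short and abundant mRNAs, held a shared peak in 67 of 83 cases (80.7%), and protein-coding genes of a single exon outside the list in 266 of 2919 (9.11%). Altogether 181 of the 29087 C2C12 shared peaks lay in histone genes (0.622%, 95% Clopper-Pearson interval 0.535 to 0.719%, counting error across peaks only). With a Piranha p of at most 0.00001 required in every library, 20 histone genes held a shared peak, against 6.16% of all protein-coding genes. With only peaks whose sequence occurs once in the genome, 6 of 67 did, against 16.7% of all protein-coding genes, so the high share of histone genes rests on peaks in sequence that several genes have in common. How much histone sequence occurs once was not measured, so shares with such peaks only do not compare binding in histone genes with that in other genes. RNA levels were not analysed here, so binding per RNA molecule and the amount of histone RNA cannot be told apart.

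Each library was also read by itself. Histone genes held 81 of 8115 peaks (0.998%) in the first and 152 of 10759 (1.41%) in the second ASC library of B1. In B2 they held 65 of 7925 (0.820%) and 165 of 19448 (0.848%). In C2C12 they held 278 of 60540 peaks in replicate 1 (0.459%) and 249 of 71992 in replicate 2 (0.346%). All 4 ASC shares lay above both C2C12 shares. When only the 7925 peaks with most reads per bin were kept in every library, a setting added after the data were seen, the C2C12 shares were 0.997% and 0.896% and the ASC shares ran from 0.820% to 1.82%, so the ranges overlapped. No test was made between the cell types, because the lists differ in the number of cells behind them and in the lowest number of reads listed, which was 4 in B2 T2, 5 in the other ASC libraries and 6 in C2C12.

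**Figure D1:**
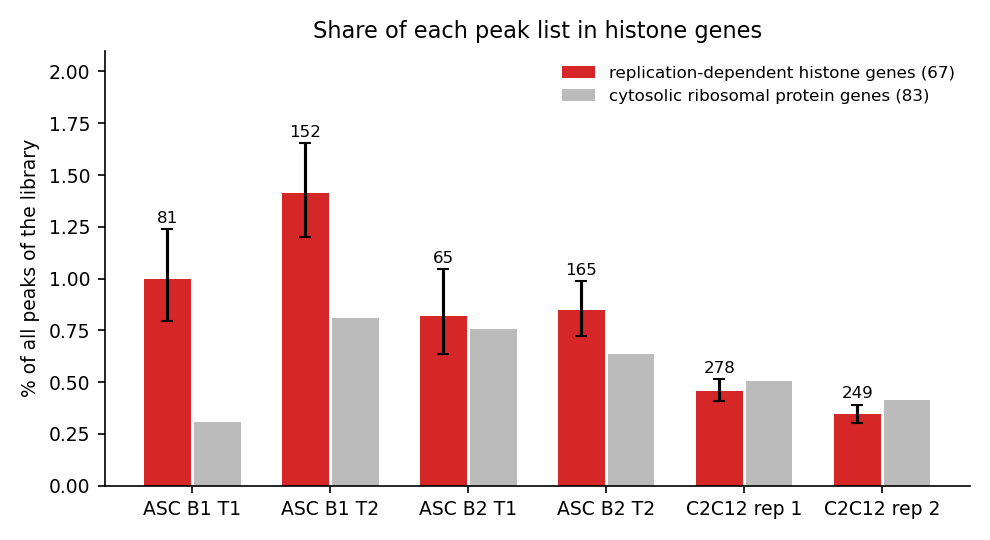
Share of all peaks of each library that lay in the 67 histone genes (red bars, with 95% Clopper-Pearson intervals and the number of peaks above) and in 83 cytosolic ribosomal protein genes (grey bars). The y axis is the percent of all peaks of the library. The histone share was 0.820 to 1.41% in the 4 ASC libraries and 0.346 and 0.459% in the C2C12 libraries.

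The peaks followed the strand of histone RNA. Peaks within histone genes whose deposited strand was that of the gene numbered 1 in B1 T1, 1 in each C2C12 library and 0 in the other ASC libraries. Over all protein-coding genes, the strand of the RNA held 56.2% and 57.5% of peaks in the B1 libraries, 69.5% and 69.3% in the B2 libraries, and 90.7% and 88.0% in the C2C12 replicates. Runs of at least 10 G near the peak, which were found for 8.31 to 13.2% of all peaks of the ASC libraries, were found for 0 histone peaks in all 6 libraries.

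By gene, 42 of the 67 genes held a peak in every library, against 2.66% of all protein-coding genes, and 64 held one in at least 1 ASC library, against 25%. With single-copy peaks only, 10 of the 67 held one in at least 1 ASC library, against 20.8%. The H1 gene Hist1h1t held no peak in any library. Single ASC libraries had a peak in 49 and 58 histone genes (B1) and 48 and 63 (B2), against 7.81%, 9.98%, 9.1% and 18.5% of all protein-coding genes. The C2C12 replicates had one in 66 and 65, against 33.1% and 36.9%. In the plot by gene and library, H3 was filled in every library, while H1 was empty in 3 of them.

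**Figure D2:**
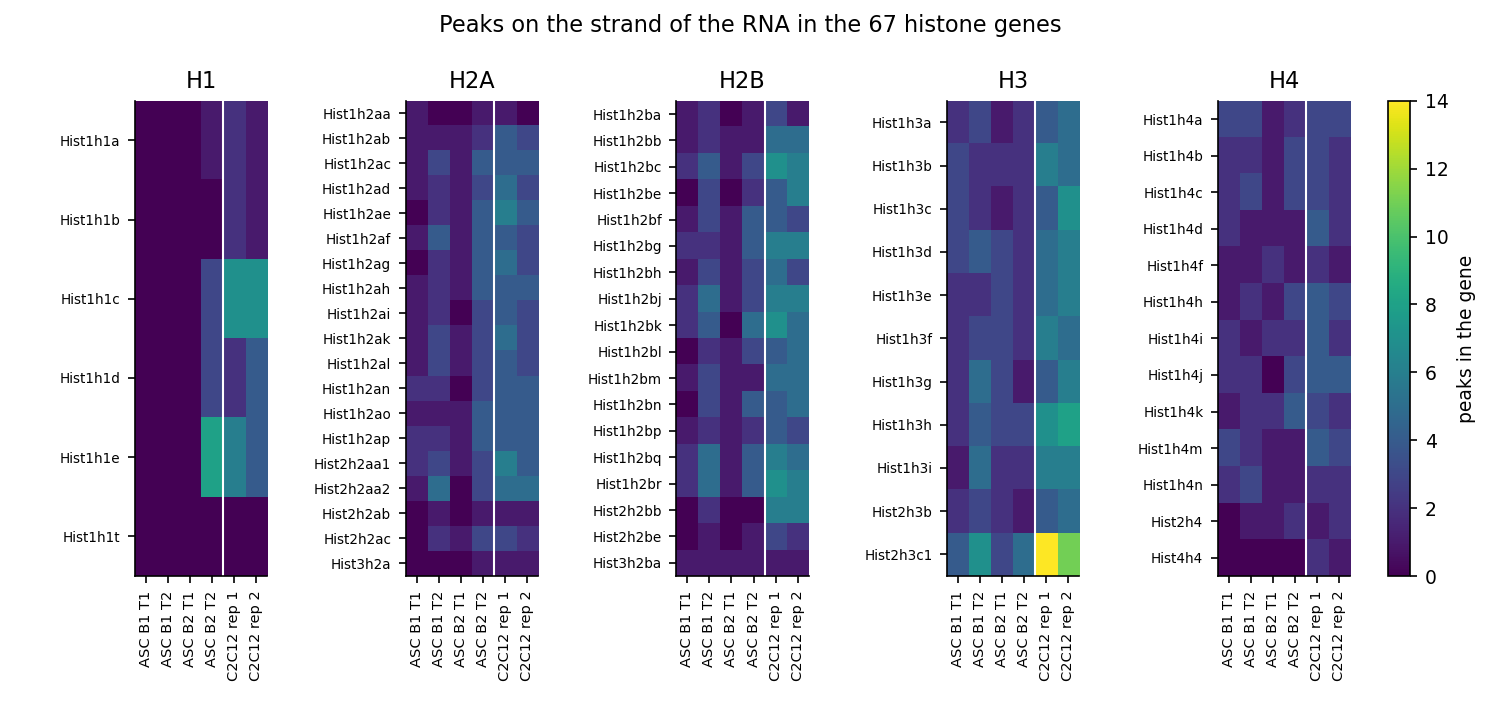
Number of peaks on the strand of the RNA in each of the 67 histone genes (rows, by histone type) in each library (columns, ASC left of the white line and C2C12 right of it). The highest value, 14, is Hist2h3c1 in C2C12 replicate 1, whose annotated interval also takes in an H2A gene. The H1 genes held no peak in either B1 library or in the first library of B2.

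Among C2C12 shared peaks, most of which lay in repeated sequence, the core histone H3 was the most densely covered type. All 11 H3 genes held a C2C12 shared peak, with a median of 5 peaks per gene and 10.4 shared peaks per kb of coding sequence. H2B followed with all 18 genes and 8.43 peaks per kb, then H2A with 18 of 19 genes and 5.42 per kb, H4 with 9 of 13 genes and 4.73 per kb, and H1 with 4 of 6 genes and 2.57 per kb. The median over shared peaks of the mean reads per bin was between 8.75 and 10.5 in the 5 types, in lists that start at 6 reads per bin. With p of at most 0.00001, 10 H2B, 6 H3, 2 H1, 2 H4 and 0 H2A genes held a shared peak. With single-copy peaks only, 2 H1, 2 H2B, 1 H3, 1 H4 and 0 H2A genes did. Of the 51 H3 peaks, 1 was single-copy. The order by peaks per kb was not tested in those settings, and the same reads can count in several genes of a type.

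The highest shared peaks lay in H2B, H1 and H3 genes. Hist1h2bp, an H2B gene, had 19 reads per bin in replicate 1 and 22 in replicate 2 of C2C12, and 10 and 5 in ASC B1 T2 and B2 T2, with no peak there in either T1 library. Hist1h1c, which encodes a linker histone, had 16 and 20 in C2C12 and no peak there in any ASC library. Next were the H2B gene Hist1h2bn with 16 and 18, the H2B gene Hist1h2br with 18 and 15, and the H3 gene Hist1h3b with 21 and 12. The means of these 5 peaks ran from 16.5 to 20.5 reads per bin with SDs of 1.41 to 6.36 (n = 2 libraries). Both values of Hist1h2bp were above both values of Hist1h2bn and Hist1h2br, whereas the replicate values of the other 4 peaks overlapped. Their reference sequences (mm9, on the strand of the RNA) are shown because they are the best covered in the family, and capitals mark a match to the m6A motif, which is A, G or T, then A or G, then AC, then A, C or T.
Hist1h2bp, chr13:21879461-21879480, + strand: tggcaagaagcgcaagcgca
Hist1h1c, chr13:23830941-23830960, + strand: aGAACAacagccgcatcaag
Hist1h2bn, chr13:21846261-21846280, + strand: cacatcccgggagatccaga
Hist1h2br, chr13:21925721-21925740, + strand: aagaagcgcaagcgcagccg
Hist1h3b, chr13:23844481-23844500, + strand: acttcaAGACCgacctgcgc
The sequences of Hist1h2bp and Hist1h2br overlap in their letters, since they cover coding nucleotides 78 to 97 and 82 to 101 of near-identical H2B genes. They occur 6 and 17 times in the genome on either strand, those of Hist1h1c, Hist1h2bn and Hist1h3b 4, 2 and 10 times.

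Such copies are the rule in this family. Of the 181 shared histone peaks, 11 (6.08%, interval 3.07 to 10.6%) had a 20-nt sequence that occurs once in the genome, 59 (32.6%) had 2 to 9 copies and 111 (61.3%, interval 53.8 to 68.5%) had 10 to 22, the highest number found. In other protein-coding genes 78.1% of shared peaks (interval 77.5 to 78.7%) occurred once. The median number of copies was 2 for H1, 20 for H2A, 12 for H2B, 10 for H3 and 11 for H4. Summed over the peaks, 91.2% of these copies lay in the histone genes themselves. By peak, 84 of the 181 (46.4%) had all copies of their most repeated 20-nt sequence in these genes. The others had at least 1 copy elsewhere in the genome, from which reads could also come. The authors placed a read at up to 10 positions with equally few mismatches, so 1 read can add to peaks of several histone genes, and a count of genes with a peak is not a count of independent observations.

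**Figure D3:**
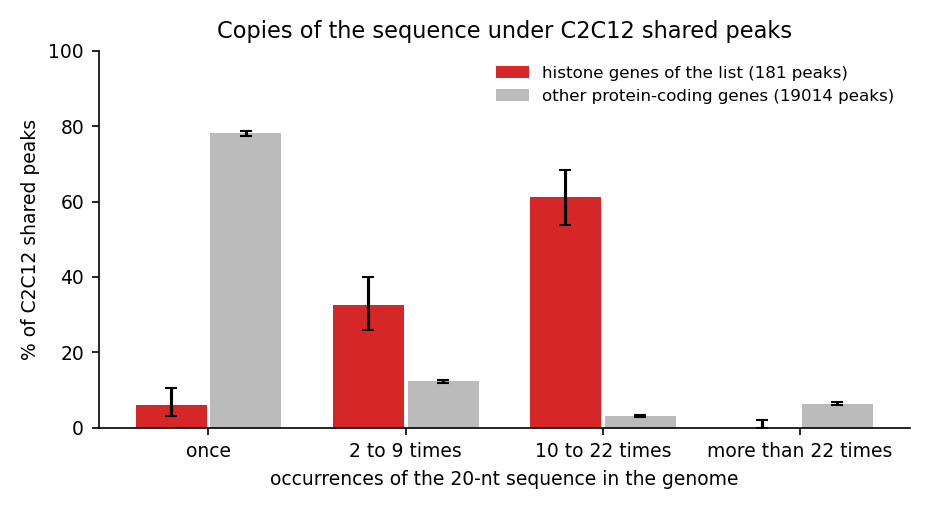
Percent of C2C12 shared peaks by the number of times the 20-nt sequence of the peak occurs in the genome, for the 181 peaks in histone genes (red) and 19014 peaks in other protein-coding genes (grey), with 95% Clopper-Pearson intervals. Histone peaks were mostly in the class of 10 to 22 copies (61.3%), peaks in other genes in the class of a single occurrence (78.1%).

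The H2A genes carry the most repeated sequences. The 20-nt sequences under peaks of several genes that were shared by most genes are shown with the same capitals, and they occur 18, 12 and 9 times in the genome.
Hist1h2ad, Hist1h2af, Hist1h2ah and Hist3h2a: TGACCatcgcgcagggcggc
Hist1h2ad, Hist1h2af and Hist1h2ah: cgtgctggagtacctgacgg
Hist1h2ad, Hist1h2af and Hist1h2ah: gccccggtgtacctggcggc
Hist1h2ad and Hist1h2ah were the most alike pair by this measure, with 4 identical 20-nt sequences under their shared peaks. Pairs with 3 were Hist1h2ad with Hist1h2af, Hist1h2af with Hist1h2ah, Hist1h2ag with Hist1h2ak, and the H2B genes Hist1h2bc with Hist1h2bq. Over all shared histone peaks, 290 bins had 268 distinct sequences. The bins come from different types and positions, copies can differ in bases, and the fixed grid of 20-nt bins can cut copies at different places. The part of each was not tested.

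Peaks that belong to 1 gene alone were few. The 11 single-copy peaks lay in 7 genes, which were Hist1h1a, Hist1h1c, Hist1h2bm, Hist2h2bb, Hist3h2ba, Hist1h3f and Hist1h4j. For 3 of them every 20-nt sequence that starts within 20 nt of the peak also occurs once, so that reads which reach past the peak are unique there too. These were both 3'UTR peaks of Hist1h1c (chr13:23831801-23831820 with 6 and 8 reads per bin in the C2C12 replicates, and chr13:23831841-23831860 with 9 and 9) and the 5'UTR peak of Hist2h2bb (chr3:96073661-96073680, 6 and 6). None of the Hist1h1c peaks was in an ASC list, and the Hist2h2bb peak was in 1.

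Hist3h2ba, an H2B gene on chromosome 11, had a single peak that all 6 libraries listed. Its reads per bin were 7 and 8 in B1 T1 and T2, 6 and 9 in B2 T1 and T2, and 16 and 14 in the C2C12 replicates. Both C2C12 values were above all 4 ASC values, but reads per bin are not normalized. Over all histone peaks the median was 5 to 7 in the ASC libraries and 8.5 and 9 in C2C12. The values therefore do not show stronger binding of Hist3h2ba in C2C12. The 20-nt sequence occurs once in the genome, but it differs from those of Hist1h2bj and Hist1h2bc at the same coding nucleotides, 280 to 299, by 2 bases, shown in capitals.
Hist3h2ba, chr11:58762721-58762740, + strand: gagGtGcagacggccgtgcg
Hist1h2bj, chr13:22135378-22135397, + strand: gagAtCcagacggccgtgcg
Hist1h2bc, chr13:23776380-23776399, + strand: gagAtCcagacggccgtgcg
Of the 41 sequences of 20 nt that start within 20 nt of the Hist3h2ba peak, 14 occur once and the others up to 17 times. Reads of Hist3h2ba and of other H2B genes that do not span the differing bases cannot be told apart.

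Within the mRNA, most peaks lay in the coding sequence. Of 183 pairs of shared peak and gene in C2C12, 175 (95.6%, interval 91.6 to 98.1%) had their midpoint in coding sequence, 3 in the 5'UTR, 2 in the 3'UTR and 3 upstream of the coding transcript. Coding sequence is 49.9% of the annotated mRNA of these genes by length and the 3'UTR 44.3%. These shares count some long annotated transcripts, such as Hist1h1d with 3821 nt of mRNA and 663 nt of coding sequence. In Hist1h2bj, 378 of 463 nt are coding. The stem-loop was found at a median of 35 nt after the coding sequence, so the shares are not those of mRNAs that end there. In other protein-coding genes, 40.2% of the pairs were in coding sequence, 18.02% in the 3'UTR and 33.4% in introns. Each library by itself had 93.3 to 98.2% of its histone peaks in coding sequence. Cut into 3 equal parts from its start, the coding sequence held 32.0%, 33.7% and 34.3% of the coding peaks in them, and the interval of each took in the other shares. With single-copy peaks only, 6 of 10 were in coding sequence (60%), 2 in the 5'UTR (20%) and 2 in the 3'UTR (20%). The 5'UTR peaks were in Hist1h4j, Hist2h2aa1 and Hist2h2bb.

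The stem-loop at the mRNA's end carried no peak. A stem-loop of the letters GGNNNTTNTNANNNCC with a paired stem was found within 200 nt after the coding sequence in 60 of the 67 genes, on the strand of the RNA, at a median of 35 nt (25 to 62 nt). Of 22305 other protein-coding genes, 6 (0.0269%) had such a match. For Hist1h2bp, Hist1h2bq, Hist1h2br and Hist2h2bb, which are annotated with more than 1 exon, it was found elsewhere in the gene or its 200-nt flanks, and for Hist1h2al, Hist1h2an and Hist2h2be no match was found. The 60 stem-loops had 8 distinct sequences, and the most common are shown with the paired stem in capitals.
Stem-loop of 36 genes: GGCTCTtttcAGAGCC
Stem-loop of 9 genes: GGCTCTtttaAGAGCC
Stem-loop of 8 genes: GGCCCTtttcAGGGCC
No peak of any of the 6 libraries overlapped one of these 60 stem-loops by 1 nt. Between the coding sequence and 20 nt past the stem-loop, the midpoints of 3 and 4 peaks were found in C2C12 replicates 1 and 2, 1 in B1 T1 and 0 in the other ASC libraries. Reads under 18 nt were removed by the authors, and how far this limits peaks near an mRNA's end was not tested. Both shared 3'UTR peaks of Hist1h1c began 404 and 444 nt past its stem-loop, within the longer mRNA that the annotation gives this gene.

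Along the coding sequence, peaks were listed at the same places in many genes of a type. The same reads can be placed on up to 10 copies of a sequence, so these genes are not independent observations. The places named for each type are those where most of its genes had a C2C12 shared peak. Positions are counted from 1 at the A of the start codon, over the genes of each type that have an unspliced coding sequence of the usual length. In H3, 9 of 10 genes had a C2C12 shared peak over nucleotides 183 to 192 and 9 of 10 over 340 to 346. In H2A, 14 of 18 genes had one over 314 to 316. In H2B, 8 of 14 genes had one over 90 to 92, and in H4, 7 of 13 had one over 219 to 230. In H1, whose genes are less alike, 4 of 6 had one over 224 to 226. H4 was empty at its start, and no library listed a peak over the first 60 nucleotides in any of the 13 H4 genes.

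The H1 peaks near this place lay in a stretch that the genes have largely in common. Hist1h1c and Hist1h1d are shown with Hist1h1a and Hist1h1e, with capitals as for the highest peaks.
Hist1h1c, chr13:23830941-23830960, + strand: aGAACAacagccgcatcaag
Hist1h1d, chr13:23647181-23647200, + strand: gagaaGAACAacagccgcat
Hist1h1a, chr13:23855801-23855820, + strand: atacgatgtggagaaGAACA
Hist1h1e, chr13:23714141-23714160, - strand: ggggtacgatgtggagaaga
Hist1h1c, Hist1h1d and Hist1h1a share the letters in capitals, cut at different places by the bins. The 20-nt sequences of Hist1h1c, Hist1h1d and Hist1h1e occur 4, 5 and 3 times in the genome, each time in a gene of the list, so the same reads can be placed on several of them. That of Hist1h1a occurs once, but sequences that start within 20 nt of it occur up to 6 times.

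**Figure D4:**
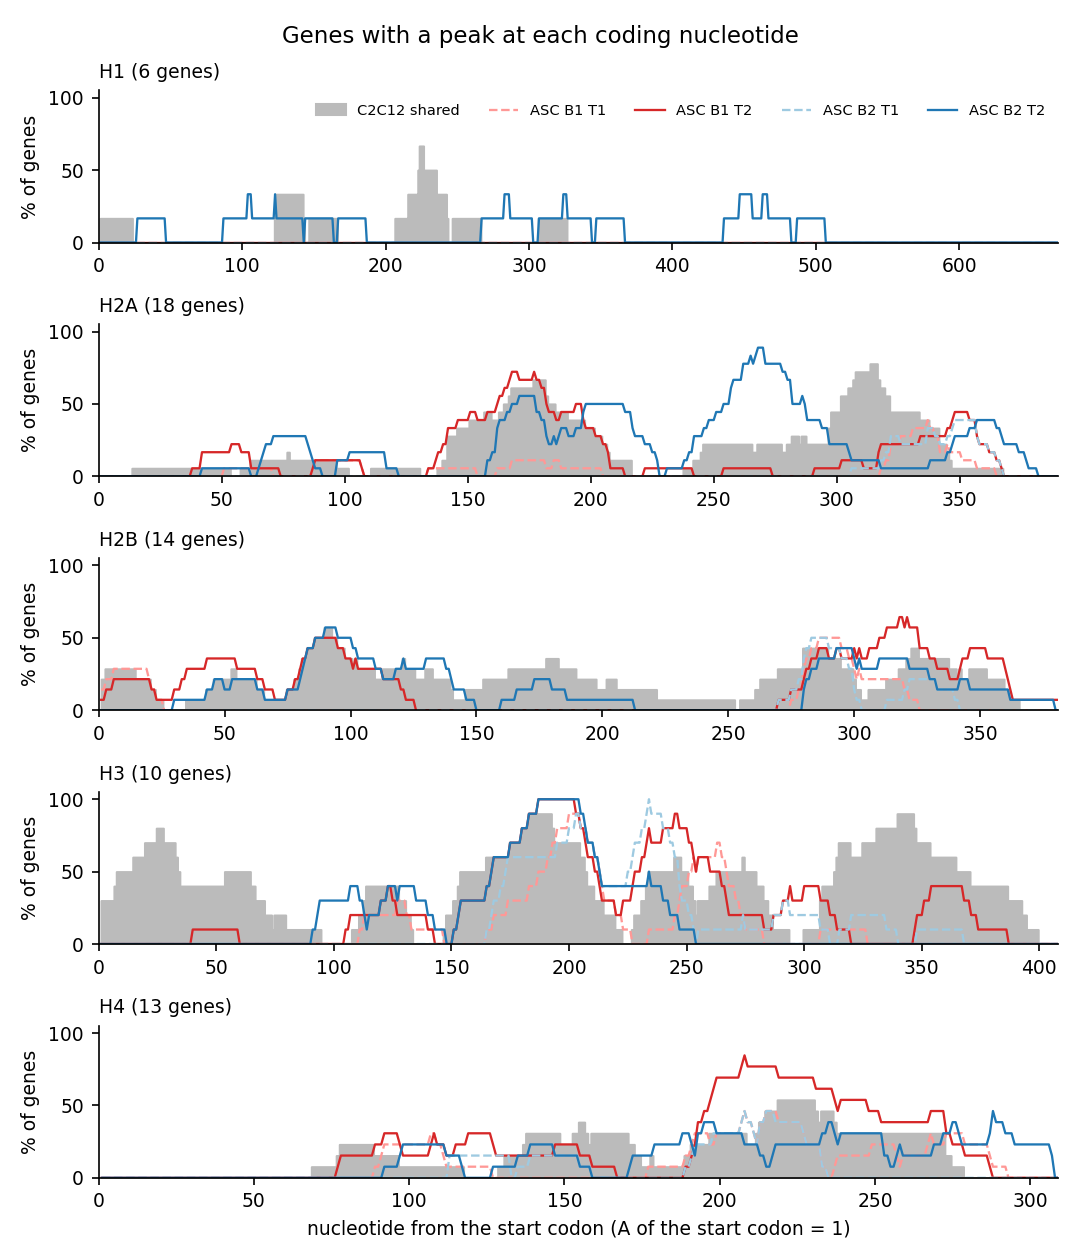
Percent of the genes of each histone type with a peak over each coding nucleotide, counted from the A of the start codon. Grey areas are C2C12 shared peaks and lines are the 4 ASC libraries (B1 red, B2 blue, T1 dashed, T2 solid). In H3 the ASC lines reach 9 or 10 of 10 genes near nucleotide 200, where C2C12 reaches 9, and near nucleotide 268 of H2A only B2 T2 reaches 16 of 18 genes. The same reads can count in several genes of a type.

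In ASC-48 hr, the peaks called in all 4 libraries were centred on H3. A peak shared by B1 (T1 with T2) and B2 (T1 with T2) was found in 17 of the 67 histone genes, against 2.46% of all protein-coding genes and 8 of 83 ribosomal protein genes (9.64%). The 18 ASC shared peaks in histone genes were 0.737% of the 2443 ASC shared peaks (interval 0.437 to 1.16%). They lay in all 11 H3 genes, in the H2B genes Hist1h2bc, Hist1h2bj, Hist1h2br and Hist3h2ba, in Hist1h2ap of H2A and in Hist1h4f of H4, and in no H1 gene. Of the 18, 15 overlapped a C2C12 shared peak, and those in Hist1h2ap, Hist1h3b and Hist1h3c did not. The same share over all ASC shared peaks was not computed, and peaks in copies of a sequence can rest on the same reads. With B2 T2 left out there were 29 ASC shared peaks in histone genes. With at least 6 reads per bin required in every library, a setting added after the data were seen, there were 9. With p of at most 0.00001 there was 1, and with single-copy peaks only there was 1, too few to show where the peaks gather. Of the 18 peaks, the one in the H2B gene Hist3h2ba alone had a sequence that occurs once.

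The ASC shared peaks of 10 H3 genes fell between coding nucleotides 165 and 226. In B1 their reads per bin ran from 5 to 8 in T1 (median 5.75) and from 6.33 to 12.5 in T2 (median 7.96). In B2 they ran from 7 to 10 in T1 (median 8.25) and from 7.33 to 12 in T2 (median 8). The values of the 4 libraries overlapped. The 11th gene, Hist2h3c1, has an annotated coding sequence 135 nt longer than that of the others (543 against 408 nt), and its peak at nucleotides 308 to 347 lies at 173 to 212 less that difference, in the same stretch. Hist1h3g had the highest of the peaks on a single bin, with 8 and 10 reads per bin in the B1 libraries and 10 and 12 in the B2 libraries, and its sequence is shown because it is identical in all 10 H3 genes of the usual length.
Hist1h3g, chr13:23627501-23627520, + strand, coding nucleotides 187 to 206: atccgcaagctgccgttcca
It occurs 12 times in the genome and holds no match to the m6A motif. As 1 set of reads can be placed on up to 10 of these copies, the 10 genes do not show that 10 different mRNAs were bound. Hist1h3h, which with Hist2h3c1 had most C2C12 shared peaks (7 each, in Hist1h3h with means of 9.75 to 15.5 reads per bin), had a further ASC shared peak at nucleotides 234 to 253, with 5, 9, 6 and 4 reads per bin in the ASC libraries and 17 and 13 in C2C12.

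**Figure D5:**
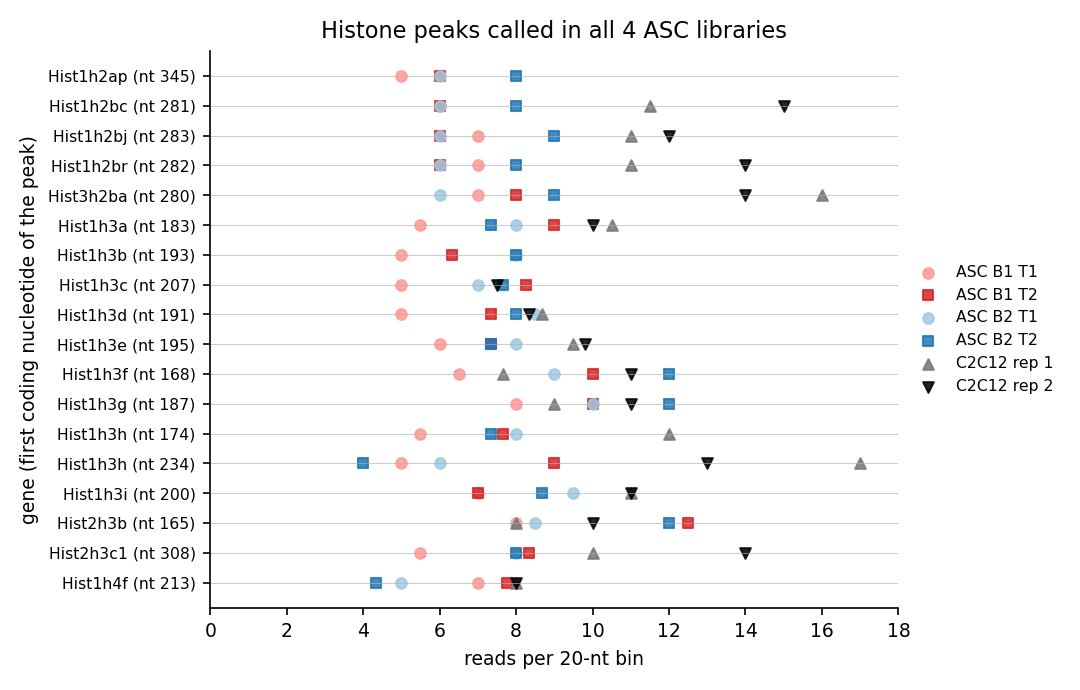
Reads per 20-nt bin of the 18 histone peaks called in all 4 ASC libraries, one row per peak with its gene and first coding nucleotide. Circles and squares are the ASC libraries and triangles the C2C12 replicates where a peak overlapped. In Hist3h2ba the C2C12 replicates had 16 and 14 reads per bin and the ASC libraries 6 to 9. Reads per bin are not normalized between libraries.

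The ASC libraries differed from each other at other positions. Between nucleotides 241 and 270 of H2A, B2 T2 listed a peak over the same nucleotide in up to 16 of 18 genes, whereas the B1 libraries did so in 0 and 1 and the other B2 library in 0. Between 331 and 360 of H3, B1 T2 reached 4 of 10 genes, B2 T1 reached 2, and B1 T1 and B2 T2 had none, while C2C12 shared peaks reached 9. Over the first 30 nucleotides of H3, C2C12 shared peaks covered up to 8 of 10 genes and all 4 ASC libraries 0. In each of these comparisons the same reads can count in several genes of a type, so the genes are not separate differences. B2 T2 also listed peaks from 4 reads per bin, and the part of this lower limit was not tested. Technical replicates also differed, since 55 of 81 histone peaks of B1 T1 (67.9%) were found in B1 T2 and 27 of 65 of B2 T1 (41.5%) in B2 T2. The same shares over all peaks of B1 T1 and B2 T1 were not computed, so these values are not particular to histone genes. In C2C12, 65.1% of the histone peaks of replicate 1 (interval 59.2 to 70.7%) were found in replicate 2, against 48.05% of all its peaks. These shares are not like for like, since 1 nt of overlap is enough and shared histone peaks were wider. Of them 56.9% were a single bin, against 89.4% of shared peaks in other protein-coding genes.

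Linker histone H1 was bound in C2C12 and, of the ASC libraries, listed in B2 T2 alone. H1 genes held 19 and 17 peaks in the C2C12 replicates, 15 in B2 T2 and 0 in the other 3 ASC libraries. B2 T2 listed peaks from 4 reads per bin, below the others. Of its 15 H1 peaks, 10 had at least 5 reads and 5 at least 6, with 7 the highest. Its list held 19448 peaks, against 7925 to 10759 in the other ASC libraries. The part of the lower limit and of sequencing depth was not tested. Of these 15 peaks, 8 were in Hist1h1e, 3 each in Hist1h1c and Hist1h1d and 1 in Hist1h1a. Hist1h1c had 5 shared peaks in C2C12 and Hist1h1e 4, while Hist1h1b had none and 2 and 1 peaks in the single replicates.

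The genes with most C2C12 shared peaks were H3, H2B and H1 genes. Hist1h3h and Hist2h3c1 had 7 each, of which 2 in the interval of Hist2h3c1 (chr3:96049477-96052431) also lie in the overlapping H2A gene Hist2h2aa1 on the same strand. Hist1h2br and Hist1h2bj had 6 each. Hist1h1c, Hist1h3b, Hist1h2bc, Hist1h3d, Hist1h3f and Hist1h3i had 5 each, as did Hist1h3e. The first H2A gene was Hist1h2ah with 4 and the first H4 gene Hist1h4j with 4. Hist1h2bj (chr13:22135083-22135545, a single exon) shows how shared peaks lay along an H2B gene, with peaks that began at coding nucleotides 3, 43, 83, 163, 263 and 323 and had means of 6.75 to 11.5 reads per bin.

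Near the histone peaks, the share with the m6A motif was not above that of histone coding sequence at large. Within 20 nt of the 103 shared histone peaks of a single bin, 38.8% (interval 29.4 to 48.9%) held the motif on the strand of the RNA, and of all 60-nt windows of histone coding sequence 45.6% did. For peaks in other protein-coding genes it was 63.0% (interval 62.3 to 63.8%). The motif GGAC, which is part of it when A, C or T follows, was held by 17.5%, 15.6% and 18.9%. The types differed with their sequences. The motif was near 9 of 11 single-bin peaks in H1 (65.9% of H1 windows), 5 of 15 in H2A (34.6%), 7 of 45 in H2B (28.5%), 11 of 23 in H3 (50.3%) and 8 of 11 in H4 (62.1%). In each type the interval took in the share of the windows. A motif is not a methylated site, and m6A was not analysed here.

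Histone genes outside the replication-dependent clusters were looked at beside them. Of 12 replication-independent histone genes, which are expressed outside S phase too and mostly have polyadenylated mRNAs, 10 were annotated under a known symbol. Of these, 6 held a C2C12 shared peak, where 21.8% of all protein-coding genes did, with 17 peaks in all. None held a peak shared by the ASC libraries, where 2.46% of all protein-coding genes did. Their peaks were spread over the gene, with 6 in coding sequence, 4 in the 5'UTR, 2 in the 3'UTR and 5 in introns. Cenpa, the centromeric H3, had 6 (5 of them intronic, the highest with 16 reads per bin in both replicates), and H2afx, the H2A of the DNA damage response, had 4. H2afz, H3f3a and H3f3b had 2 each and H2afj 1. The coding peaks of H3f3a, which encodes H3.3, lay at nucleotides 210 to 229 and 250 to 269, with 9 and 6.5 reads per bin on average, and their sequences occur 16 and 21 times in the genome.

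Of 21 genes for the processing, transcription and decay of histone mRNA, 5 held a C2C12 shared peak, where 21.8% of all protein-coding genes did. None held an ASC shared peak, where 2.46% of all protein-coding genes did. Cstf2t, the intronless copy of the cleavage factor gene Cstf2, had 5 (highest 21.5 ± 2.12 reads per bin, SD, n = 2), and Casp8ap2, a component of the histone locus body, had 3. Cpsf3, which encodes the endonuclease that cuts histone mRNA, Wdr33 of the polyadenylation complex and Ars2 (annotated as Srrt) of the cap-binding complex had 1 each. Slbp, which encodes the stem-loop binding protein, held no peak in any library, and neither did Eri1, Coil and Zfp473.

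The labelled cells were checked by peaks in marker genes. Of 6 markers of satellite cells and myoblasts, 4 held a C2C12 shared peak and 4 a peak in at least 1 ASC library. Over all protein-coding genes these shares were 21.8% and 25%. Myod1 held 0, 2, 1 and 6 peaks in the ASC libraries and 5 and 3 in C2C12, Pax7 held 1, 1, 2 and 10 in ASC and 0 and 1 in C2C12, and Des held 0, 3, 1 and 4 and 17 and 16. Myf5 held 0, 0, 1 and 0 in ASC and 2 in each C2C12 replicate. Cdh15 and Vcam1 held no peak in any ASC library, and 6 and 9 and 3 and 4 in C2C12. Of markers of other cells in muscle, Ptprc, Cd68, Cdh5 and Dcn had no peak in any library, Pecam1 had 1 in each of the 6, and Pdgfra had 2 and 4 in C2C12 alone. The C2C12 shared peak of Pecam1 was intronic, with a mean of 6.25 reads per bin in lists that start at 6. Peaks in marker genes do not measure RNA levels.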

How the data were processed

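LACE-seq peak lists of 6 libraries were analysed. The authors trimmed reads with Cutadapt 1.15, removed pre-rRNA reads, placed the rest on mm9 with Bowtie 1.2.3 (up to 2 mismatches, up to 10 positions of the best class) and called peaks per library with Piranha (20-nt bins, p threshold 0.001, stated for ASCs). Removal of duplicate reads is not stated. The deposited signal is reads per bin, not normalized, averaged over the bins of wider peaks. The p-value deposited by the authors is Piranha's, unadjusted. Such lists give no library depth. Genes and sequences were those of GENCODE vM1 and NCBIM37 (mm9). A gene's coding transcript is the one with the longest coding sequence. A C2C12 shared peak is a peak of replicate 1 with at least 1 nt in common with a same-strand peak of replicate 2, and ASC shared peaks were nested likewise (T1 with T2, then B1 with B2). No test was made between groups, and Dixon's ratio served only to pick out single libraries. Intervals are Clopper-Pearson at the 95% level and cover counting error only. Python 3.11.15, pandas 2.3.3, scipy 1.17.1, numba and pysam were used, and 10 of 10 checks on simulated lists of 2000 peaks gave the known answer. The members and gene lists were chosen with earlier results of these data known. Genes named are the 10 with most C2C12 shared peaks, the first of each type, the 5 highest peaks, genes with ASC peaks (of the 42 genes tied at 4 libraries, those with a shared peak), list genes with a shared peak and the most alike pairs. Further genes were named after their values were seen. Alternatives numbered 101 planned combinations of result and choice, and 14 were added after the data were seen.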

Additional observations from a re-analysis of the deposited data

Results flagged for a closer look

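In 4 of 17 counts and shares compared over the 4 ASC libraries, 1 library stood apart from the other 3 by Dixon's ratio of its gap to the whole range. The usual rate of 1 in 20 groups by chance does not hold here, because in 3 of the 4 the other libraries were all at 0, where any count above 0 passes, and because the libraries are technical pairs. ASC B2 T2 held 15 peaks in H1 genes and a peak in 4 H1 genes, where the other libraries held 0. It also lists peaks down to 4 reads per bin, and 10 of the 15 had at least 5 reads. ASC B1 T2 held 40 peaks in H3 genes, where the others held 24 to 26. ASC B1 T1 held 1 peak on the strand of a histone gene itself, where the others held 0. The part of sequencing depth in these differences was not tested.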

How the results depend on the processing

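Of 220 values recomputed, 165 stayed within the limit set for them (1.5 times for a count) and 55 moved, none of which had a test. With p of at most 0.00001, genes with a C2C12 shared peak fell from 60 to 20 (H1 2, H2A 0, H2B 10, H3 6, H4 2), shared peaks from 181 to 29 and the share of all protein-coding genes to 6.16%. Peaks were then 100% coding, 0% 5'UTR and 0% 3'UTR, with 44.8% in the first of 3 equal parts of the coding sequence, a median of 12.5 reads per bin, and 1 ASC shared peak. With single-copy peaks only (single-copy in both lists, hence 10 and not 11), there were 6 genes (H1 2, H2A 0, H2B 2, H3 1, H4 1), 10 peaks (0.0588% of shared peaks, 60% coding, 20% 5'UTR, 20% 3'UTR), a median of 8.25 reads, 1 ASC shared peak, 10 genes with any ASC peak, and 16.7% of all protein-coding genes. Under both settings 100% of histone peaks of B1 T1 and of both C2C12 replicates were on the RNA's strand. Without replicate 1 or 2, C2C12 peaks numbered 249 to 278 (0.346 to 0.459%), with 33.1 to 36.9% of all genes and a median of 8.5 to 9 reads, since a single list has no overlap to pass. Without 1 ASC library, 21 to 29 ASC peaks were shared. 2 settings were added after the data were seen. With the 7925 highest peaks of each library, 18 genes and 29 peaks (0.769%) were left, with 5.00% of all genes, and shares of 1.82% in B1 T2, 1.39% in B2 T2, and 0.997% and 0.896% in C2C12. With at least 6 reads, 9 ASC peaks were shared, and shares were 1.99% in B1 T2 and 1.11% and 1.45% in the B2 libraries. No paired analysis was possible because the results come from no test. The lists give no depth, and a missing peak does not show that an mRNA was not bound.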
